A study of Mus musculus with 12 samples.

Results

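The integrated stress response was followed through 10 genes in cultured mouse keratinocytes, out of 22180 genes measured. They were chosen by name: the transcription factor genes Atf4, Atf3, Ddit3, Cebpb, Cebpg and Nupr1, the feedback genes Trib3 and Ppp1r15a, and the effector genes Chac1 and Ddit4. Earlier results of these data were known at that choice. Counts of the 10 beside shares of all genes are therefore descriptions and not independent evidence. The deposited table held 1 probe set for each of them, so no choice between probe sets was needed. Total RNA from 12 cultures was hybridised to 12 arrays in 4 groups of 3. Both genotypes carried Atg7 f/f alleles. The wt cells lacked K14::Cre and the KO cells carried it, K14 being a keratin promoter of basal keratinocytes, so loss of Atg7 and presence of the recombinase cannot be told apart. ATG7 is the enzyme that starts the lipid conjugation of the LC3 family during autophagy. Each genotype received either a sham treatment or 20 µM of the herbicide paraquat, which passes electrons to oxygen and so makes superoxide, for 48 h. The labels name biological triplicates without tying an array to an animal, and give no age or sex, so p-values measure only the spread between these samples, which may be technical.

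In the integrated stress response, kinases that sense amino acid shortage, unfolded protein, double-stranded RNA or haem shortage phosphorylate the translation factor eIF2. General protein synthesis falls, while the Atf4 mRNA is translated more because of upstream reading frames in its leader, so the Atf4 signal reports transcript and not ATF4 protein. ATF4 pairs with C/EBP factors on composite sites and drives genes of amino acid supply, the partner factor CHOP (Ddit3), and the genes that end the response.

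The targeted gene and the cell type were checked first. Atg7 signals were 96 to 148 in the 6 KO arrays and 286 to 457 in the 6 wt arrays, 2.92-fold lower in sham (adjusted p = 2.8e-05) and 3.65-fold lower under paraquat (adjusted p = 4.1e-05). Of 16 keratinocyte markers measured, 15 lay above the highest array median of 45 in every group mean, Krt14 at 8933 to 11102, and Krt15 lay below it. The lowest signal of any of the 10 stress response genes was 76. On the second principal component (12.2% of the variance) the wt sham arrays lay at -11.4, -31.4 (wt sham 2) and -20.4. On the third (4.08%) the KO paraquat arrays lay at -5.52, -6.34 and -19.7 (KO paraquat 3). Under paraquat the summed signal of 12 melanocyte markers was 1063 to 1151 in wt and 1058 to 1104 in KO, against 552 to 652 and 612 to 653 in sham. That of 11 leukocyte markers was 2074 to 2165 and 1487 to 1750, against 843 to 899 and 850 to 947. Most of the latter was Cd68, since Ptprc, the pan-leukocyte marker, stayed at 13 to 21. For 10 endothelial markers the sums were 600 to 673 and 510 to 571 under paraquat, against 406 to 425 and 444 to 466 in sham. For 12 fibroblast markers they were 659 to 735 and 637 to 655, against 695 to 753 and 681 to 706. Most of the melanocyte rise was Mlana, from a mean of 64.3 to 379 in wt and from 69.7 to 358 in KO. Dct, Pmel and Tyrp1 rose less, and Tyr stayed at 7 to 12. Most of the endothelial rise was Kdr, from a mean of 53.3 to 248 in wt and from 58 to 149 in KO. Paraquat lowered 8 and raised 1 of 16 keratinocyte markers in wt, and lowered 7 and raised 1 in KO. In wt it raised 4 of 12 melanocyte, 3 of 11 leukocyte, 3 of 10 endothelial and 1 of 12 fibroblast markers, and lowered 1 leukocyte and 1 fibroblast marker. In KO it raised 4, 2, 2 and 2 of them and lowered 1 leukocyte, 1 endothelial and 1 fibroblast marker. Over all genes 29.2% were called in wt and 27.1% in KO. The shares were 56.2% and 50% for keratinocyte, 33.3% and 33.3% for melanocyte and 36.4% and 27.3% for leukocyte markers. For endothelial markers they were 30% and 30%, and for fibroblast markers 16.7% and 25%, so most of these lists lay near the share of all genes. The part of other cell types in the paraquat differences given here was not tested. Between KO and wt sham cultures, 0 of 16 keratinocyte, 0 of 12 melanocyte, 0 of 12 fibroblast, 1 of 11 leukocyte and 1 of 10 endothelial markers differed. Over all genes 10.2% were called there, so counts from lists this short cannot show that the cultures matched in cell types.

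Promoter sequence is shown for the members in which a fixed search found a composite or cAMP response element, since ATF4 acts through such sites. The windows run from 250 bases before to 50 after the RefSeq start of each gene (GRCm38.p6) and held all 10 genes. The composite element searched was TGATGNAA on either strand. It was in the window of 4 of the 10 genes (Atf3, Chac1, Nupr1 and Trib3), and in 4.51% of the 27025 genes of the promoter table. The 250 bases before the start are printed for those with the match wholly upstream, with the match in capitals.
Chac1, chr2:119350992-119351241, plus strand: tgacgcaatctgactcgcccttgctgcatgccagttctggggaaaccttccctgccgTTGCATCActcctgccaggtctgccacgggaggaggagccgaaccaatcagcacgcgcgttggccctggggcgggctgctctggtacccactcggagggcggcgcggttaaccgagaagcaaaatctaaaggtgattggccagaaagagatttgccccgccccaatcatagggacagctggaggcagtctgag
Nupr1, chr7:126625471-126625720, minus strand: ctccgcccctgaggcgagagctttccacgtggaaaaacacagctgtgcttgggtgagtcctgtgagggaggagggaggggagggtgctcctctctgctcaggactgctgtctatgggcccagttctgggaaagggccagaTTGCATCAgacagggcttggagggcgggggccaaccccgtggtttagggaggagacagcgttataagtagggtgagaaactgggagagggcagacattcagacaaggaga
Atf3, chr1:191183334-191183583, minus strand: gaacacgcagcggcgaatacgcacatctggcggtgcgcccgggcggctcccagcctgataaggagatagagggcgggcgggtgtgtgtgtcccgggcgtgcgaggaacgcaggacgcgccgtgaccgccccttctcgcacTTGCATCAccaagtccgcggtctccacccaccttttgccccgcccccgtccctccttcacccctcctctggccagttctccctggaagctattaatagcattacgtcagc
All 3 carried the same letters, TTGCATCA, which is the element read on the opposite strand. Counting back from -1, the base just before the start, the match began at -193 in Chac1, -110 in Nupr1 and -110 in Atf3. In Trib3 the match, TTACATCA, lay just downstream of the start, its first base at 15 counted from 1 at the start. The full cAMP response element TGACGTCA, which reads the same on both strands, was in 1 of the 10 windows, that of Ppp1r15a with its first base at -12, and in 2.03% of genes in the table. These are shown as 30 bases around the match.
Trib3, chr2:152344028-152344057, minus strand: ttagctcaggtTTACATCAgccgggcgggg
Ppp1r15a, chr7:45526262-45526291, minus strand: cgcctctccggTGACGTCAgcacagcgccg
The C/EBP palindrome and the endoplasmic reticulum stress element, also searched on both strands, were in 0 of the 10 windows, and in 0.0074% and 0.137% of genes. A match is a description of letters, and the absence of one speaks only of these windows.

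Untreated KO keratinocytes had lower transcript levels of nearly the whole set than untreated wt keratinocytes. In sham cultures 9 of the 10 genes were lower in KO, from 1.31-fold for Atf4 to 4.65-fold for Trib3, and Atf3 was the exception. For all 9 the KO sham arrays lay below the wt sham arrays without overlap. Over all genes 10.2% were called, 5.67% lower and 4.58% higher, and 12.6% were lower and 10.1% higher without overlap. By p-value Trib3 ranked 2 and Chac1 31 among 22180 genes. The arrays measure RNA of whole cultures, in which fewer cells of a type and less RNA per cell cannot be told apart.

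Paraquat lowered most of the set in wt and few of it in KO. In wt 7 of 10 fell and 1, Cebpb, rose, against 29.2% of all genes called, 14.3% falling and 14.9% rising. The arrays of these 7 and of Cebpb did not overlap, as in 18.3% of genes lower and 19.2% higher. In KO 2 of 10 fell (Atf3 and Trib3) and 3 rose (Atf4, Cebpb and Ppp1r15a), against 27.1% of all genes called, 12.6% falling and 14.5% rising. In KO 5 of 10 were higher and 2 lower without overlap, against 20% and 17.3% of genes. The wt response and the sham genotype comparison share the wt sham arrays, so a high or low level there enters both. In 6 of 10 genes (Ddit3, Trib3, Chac1, Cebpg, Nupr1 and Ddit4) the 3 wt sham arrays lay above the other 9 arrays, a pattern held by 5.13% of all genes. In 5 of 10 (Atf4, Ddit3, Chac1, Cebpb and Ppp1r15a) the 3 KO sham arrays lay below the other 9, against 4.66% of all genes. Cebpb alone had its 3 wt paraquat arrays above the other 9, as 4.84% of genes did.

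Under paraquat few genes of any kind were called between the genotypes. Limma called 0 of 10 genes between KO and wt under paraquat, where 0.55% of all genes were called (0.451% lower, 0.0992% higher), and 0 under every alternative fit run, a count that at this share says nothing particular of the 10. At an unadjusted p under 0.05 there were 3 of 10, against 11% of all genes. In 5 of 10 (Ddit3, Cebpb, Ppp1r15a, Nupr1 and Ddit4) the KO paraquat arrays were all below the wt paraquat arrays, against 9.07% of all genes, and 0 of 10 lay above without overlap (7.94%).

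**Figure D1:**
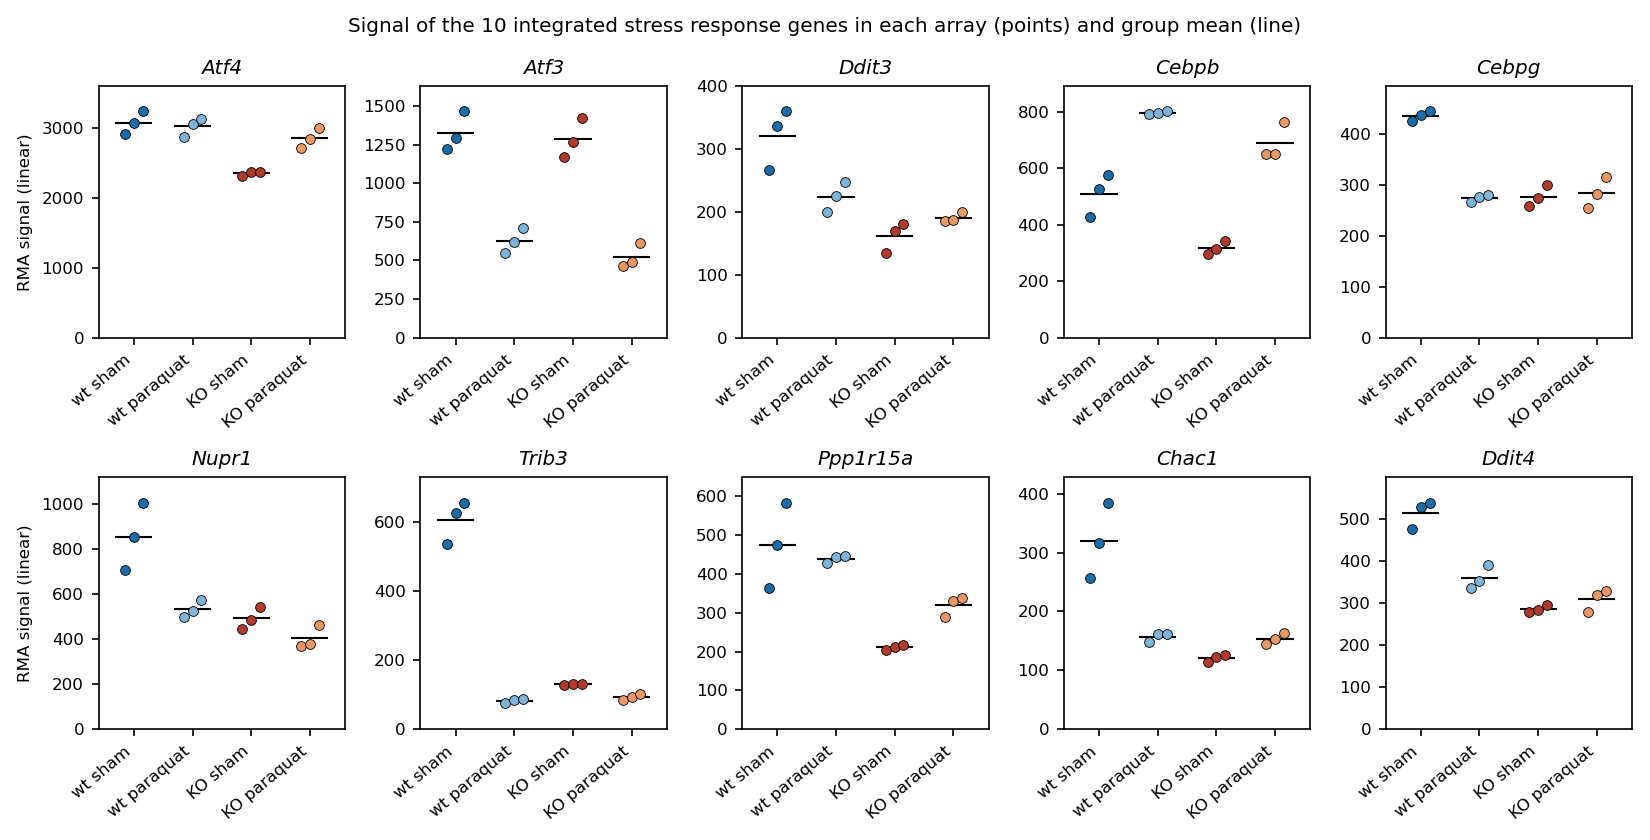
Linear RMA signal of each gene in each array (points, sorted within a group and not by replicate number) with the group mean (line), for both genotypes in sham and with paraquat, 3 arrays per group. Trib3 is at 536 to 655 in wt sham and at 76 to 130 in the other 9 arrays, while Atf3 parts by treatment, at 1169 to 1467 in sham and 465 to 711 under paraquat.

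Atf4 (chr15:80255184-80257545 in GRCm38.p6, from the RefSeq gene table, as for the genes that follow) encodes the transcription factor at the centre of the response. Its signals were 2916, 3242 and 3066 in wt sham, 3135, 2877 and 3061 in wt paraquat, 2316, 2370 and 2365 in KO sham, and 2838, 2721 and 3004 in KO paraquat. The KO sham arrays were below the other 9, and the remaining 3 groups overlapped each neighbour in the order wt sham, wt paraquat, KO paraquat. KO sham was at 0.765 of wt sham (95% interval 0.683 to 0.858, log2 -0.39 ± 0.08, SE, adjusted p = 0.00581). Paraquat raised Atf4 1.21-fold in KO (log2 0.28 ± 0.08, adjusted p = 0.0143), a call lost without KO paraquat 3 (adjusted p = 0.0576). In wt the paraquat difference was log2 -0.02 ± 0.08 (adjusted p = 0.871), with a 95% interval of 0.878 to 1.10 for the ratio. Of the 9 genes lower in KO sham, Atf4 had the smallest ratio difference and Trib3 the largest.

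Ddit3 (chr10:127290793-127296291) encodes CHOP, a C/EBP-family factor induced by ATF4 that is linked to cell death when stress lasts. Signals were 266, 360 and 336 in wt sham, 248, 200 and 225 in wt paraquat, 180, 135 and 169 in KO sham, and 187, 199 and 185 in KO paraquat. The 4 groups did not overlap, with wt sham highest, then wt and KO under paraquat, and KO sham lowest. In sham KO was 1.99-fold lower (log2 -0.99 ± 0.13, adjusted p = 5.16e-04). Ddit3 fell 1.42-fold under paraquat in wt (log2 -0.51 ± 0.13, adjusted p = 0.00929). That call was lost without wt sham 2 and KO paraquat 3 together (log2 -0.42, adjusted p = 0.0576). In KO the paraquat difference was log2 0.25 ± 0.13 (adjusted p = 0.2), 0.13 to 0.33 without 1 array, although the arrays did not overlap.

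Cebpb (chr2:167688915-167690432) encodes C/EBP beta, a partner of ATF4 and a factor of keratinocyte differentiation. Signals were 427, 576 and 527 in wt sham, 794, 793 and 802 in wt paraquat, 295, 315 and 342 in KO sham, and 764, 649 and 652 in KO paraquat. It was the one gene of the set whose 6 paraquat arrays lay above all 6 sham arrays, as in 10.9% of all genes, and its 4 groups did not overlap. Paraquat raised it 1.57-fold in wt (log2 0.65 ± 0.11, adjusted p = 4.59e-04) and 2.17-fold in KO (log2 1.12 ± 0.11, adjusted p = 7.16e-06). In sham KO was 1.60-fold lower (log2 -0.68 ± 0.11, adjusted p = 0.00198). Cebpb was the one gene of the set that rose under paraquat in wt.

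Cebpg (chr7:35046422-35056566) encodes C/EBP gamma, a short C/EBP protein that dimerises with ATF4. Signals were 445, 438 and 426 in wt sham, 277, 267 and 281 in wt paraquat, 274, 299 and 258 in KO sham, and 315, 282 and 254 in KO paraquat. The wt sham arrays stood above the rest, and the other 3 groups overlapped one another between 254 and 315. KO sham was at 0.634 of wt sham (95% interval 0.554 to 0.725, adjusted p = 6.2e-04), and wt paraquat at 0.630 of it (0.551 to 0.721, adjusted p = 7.01e-05). In KO the ratio of paraquat to sham was 1.02 (0.893 to 1.17, adjusted p = 0.852).

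Atf3 (chr1:191170296-191183333) encodes a repressor of the same protein family that many stresses and growth signals induce. Signals were 1221, 1291 and 1467 in wt sham, 1424, 1169 and 1268 in KO sham, 711, 549 and 621 in wt paraquat, and 611, 487 and 465 in KO paraquat. All 6 paraquat arrays were below all 6 sham arrays, as for Trib3 and for 9.05% of all genes, and genotypes overlapped within each treatment. It fell 2.12-fold in wt (log2 -1.08 ± 0.13, adjusted p = 2.12e-05) and 2.48-fold in KO (log2 -1.31 ± 0.13, adjusted p = 6.22e-06). In sham the ratio of KO to wt was 0.970 (95% interval 0.801 to 1.17, adjusted p = 0.89). Atf3 was the gene of the set that did not share the low KO sham level.

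Nupr1 (chr7:126623246-126625470) encodes a small chromatin-associated stress protein. Signals were 709, 1006 and 852 in wt sham, 527, 572 and 496 in wt paraquat, 544, 446 and 486 in KO sham, and 370, 379 and 463 in KO paraquat. The wt sham arrays were above the other 9, and the remaining groups overlapped each neighbour in the order wt paraquat, KO sham, KO paraquat. In sham KO was 1.73-fold lower (log2 -0.79 ± 0.13, adjusted p = 0.00212), and paraquat lowered it 1.60-fold in wt (log2 -0.67 ± 0.13, adjusted p = 0.00133). In KO the paraquat difference was log2 -0.29 ± 0.13 (adjusted p = 0.133).

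Trib3 (chr2:152337425-152344060) encodes a pseudokinase that binds ATF4 and CHOP and limits their activity, and it had the widest range of the set. Signals were 536, 624 and 655 in wt sham, 129, 130 and 130 in KO sham, 85, 101 and 94 in KO paraquat, and 84, 76 and 86 in wt paraquat. The 3 KO sham arrays stood between wt sham and the paraquat arrays without overlap, and the paraquat groups overlapped each other. KO sham was at 0.215 of wt sham (95% interval 0.186 to 0.248, log2 -2.22 ± 0.10, adjusted p = 6.44e-08). Paraquat brought Trib3 to 0.136 of its sham level in wt (0.118 to 0.157, adjusted p = 9.31e-10) and to 0.718 in KO (0.622 to 0.828, adjusted p = 0.00188).

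Ppp1r15a (chr7:45522917-45526268) encodes GADD34, which brings a phosphatase to eIF2 and so ends the translational block. Signals were 364, 584 and 474 in wt sham, 443, 447 and 428 in wt paraquat, 216, 204 and 212 in KO sham, and 339, 331 and 289 in KO paraquat. Both wt groups overlapped, with a wide spread in wt sham, and the KO groups lay below them and apart from each other. In sham KO was 2.21-fold lower (log2 -1.14 ± 0.13, adjusted p = 2.35e-04). Paraquat raised it 1.51-fold in KO (log2 0.60 ± 0.13, adjusted p = 0.00425), and in wt the difference was log2 -0.08 ± 0.13 (adjusted p = 0.722), with the opposite sign (0.08) without wt sham 2. Between the genotypes under paraquat the arrays did not overlap, but the difference of log2 -0.46 ± 0.13 did not pass (adjusted p = 0.183).

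Chac1 (chr2:119351242-119354326) encodes an enzyme that degrades glutathione, the main thiol antioxidant, and is a target of the ATF4 and CHOP pathway. Signals were 257, 385 and 317 in wt sham, 149, 162 and 161 in wt paraquat, 123, 114 and 126 in KO sham, and 153, 163 and 144 in KO paraquat. The wt sham arrays were above and the KO sham arrays below all others, with both paraquat groups overlapping between them. In sham KO was 2.61-fold lower (log2 -1.38 ± 0.12, adjusted p = 2.9e-05), and paraquat lowered Chac1 2.01-fold in wt (log2 -1.0 ± 0.12, adjusted p = 2.72e-05). In KO the paraquat difference was in the other direction, log2 0.34 ± 0.12, and missed the threshold (adjusted p = 0.0542). It passed from the 6 KO arrays alone (adjusted p = 0.0206), with the filter on dim genes (0.0277), with a variance trend (0.0433) and with array weights (0.0272). It also passed without wt sham 1 (0.016) or wt sham 2 (0.0163), with the difference itself unchanged at log2 0.34. Over the fits without 1 array its adjusted p reached 0.164.

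Ddit4 (chr10:59949675-59951770) encodes REDD1, an inhibitor of the growth kinase complex mTORC1. Signals were 475, 528 and 538 in wt sham, 391, 351 and 336 in wt paraquat, 295, 278 and 282 in KO sham, and 327, 319 and 278 in KO paraquat. The wt sham arrays were highest, the wt paraquat arrays next, and both KO groups overlapped below them. In sham KO was 1.80-fold lower (log2 -0.85 ± 0.09, adjusted p = 1.36e-04), and paraquat lowered Ddit4 1.43-fold in wt (log2 -0.52 ± 0.09, adjusted p = 6.41e-04). In KO the ratio of paraquat to sham was 1.08 (95% interval 0.941 to 1.24, adjusted p = 0.448).

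**Figure D2:**
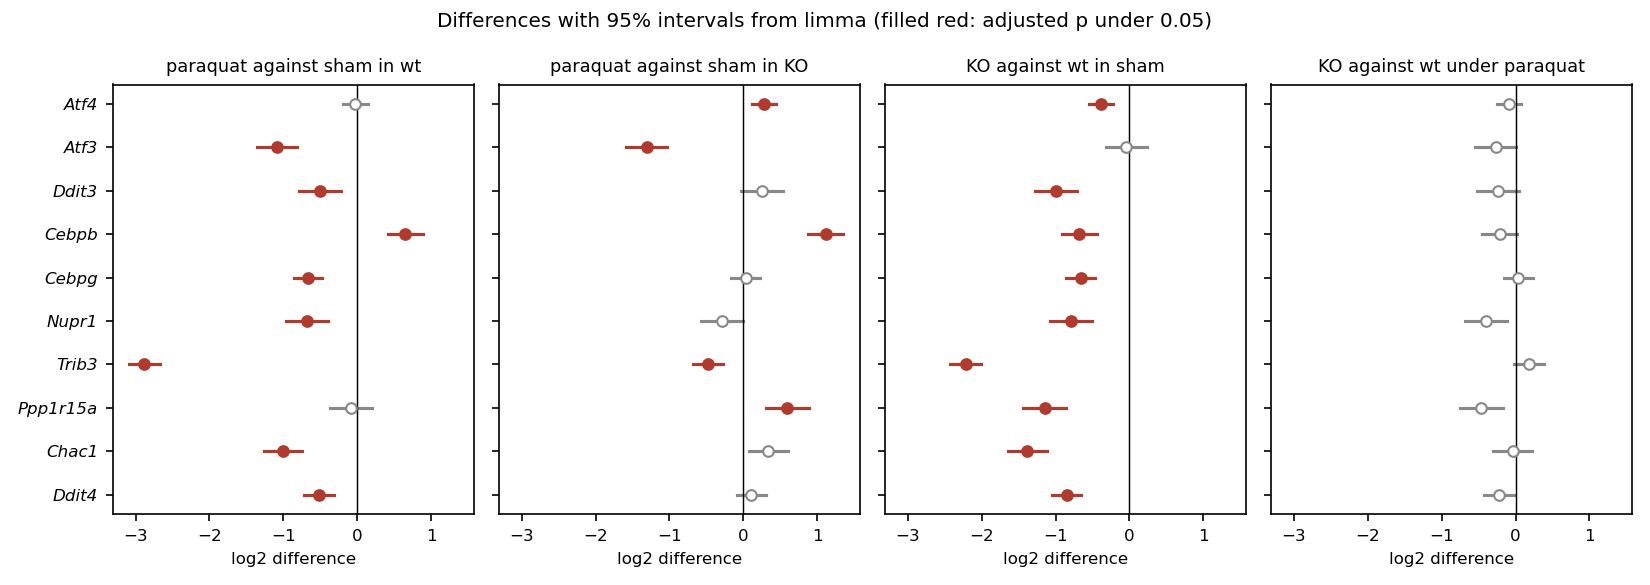
Log2 differences of the 10 genes (points) with 95% intervals (lines) in the 4 pairwise comparisons of 3 against 3 arrays; filled red points have an adjusted p under 0.05. In sham 9 genes are lower in KO, Trib3 by the most, and under paraquat no gene is called.

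Whether wt and KO responded differently to paraquat was tested directly, as the KO response minus the wt response. The difference was positive in 9 of 10 genes, Atf3 being the exception, and 4 passed: Trib3 (log2 2.40 ± 0.13, adjusted p = 1.85e-06), Chac1 (1.35 ± 0.17, adjusted p = 0.00148), Cebpg (0.70 ± 0.13, adjusted p = 0.0137) and Ddit4 (0.63 ± 0.13, adjusted p = 0.0252). Over all genes 2.29% passed, 1.39% with a positive and 0.897% with a negative difference. The Ddit4 call was lost when any 1 of 8 arrays was left out (wt sham 2 or 3, KO sham 2 or 3, wt paraquat 2 or 3, KO paraquat 1 or 2), with adjusted p of 0.0529 to 0.0725. Ddit3 (0.76 ± 0.19, adjusted p = 0.0539) and Ppp1r15a (0.68 ± 0.19, adjusted p = 0.0876) did not pass as fitted. With all 12 arrays Ddit3 passed after array median centring (adjusted p = 0.0481), with a filter on dim genes (0.0241), with 16 added to each signal (0.0359), with a variance trend (0.0332) and with array weights (0.0399), and Ppp1r15a passed with the filter (0.0403). Wt sham 1 was the lowest array of its group in 9 of the 10 genes, Cebpg being the exception, against 29% of all genes, and wt sham 2 was the highest in 6 of 10, against 34.8%. In 7 of 10 the SD of log2 signal was larger in wt sham than in the other groups, as in 30.7% of all genes, with Ppp1r15a at 0.34 against 0.03 to 0.12. Without wt sham 1, 7 of 10 passed, with Ddit3 (adjusted p = 0.0167), Ppp1r15a (0.00669) and Cebpb (0.0386) added. Over all fits without 1 array the adjusted p reached 0.131 for Ddit3, 0.183 for Ppp1r15a and 0.297 for Cebpb. Atf4 (0.30 ± 0.11, adjusted p = 0.183), Cebpb (0.46 ± 0.16, adjusted p = 0.163), Nupr1 (0.39 ± 0.19, adjusted p = 0.347) and Atf3 (-0.23 ± 0.18, adjusted p = 0.618, -0.13 to -0.35 without 1 array) did not pass either. This contrast is also the difference between the sham and the paraquat genotype gaps, so it holds no information beyond the 4 group means.

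**Figure D3:**
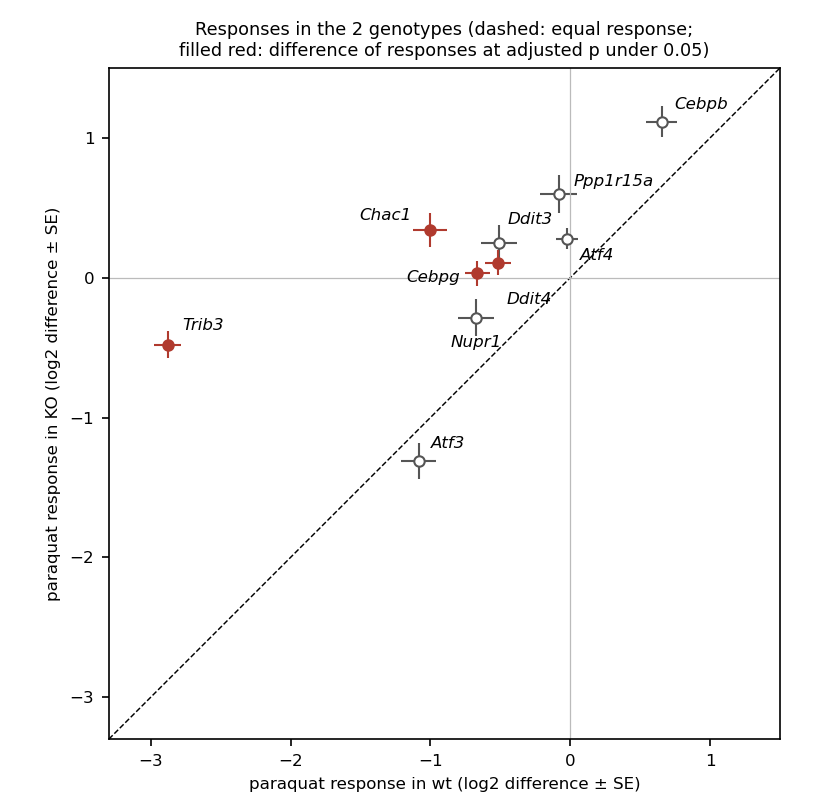
Paraquat response in wt (horizontal) and in KO (vertical), log2 difference ± SE from 3 arrays per group, for each gene; the dashed line marks equal responses, and filled red points have a difference of responses with an adjusted p under 0.05. Trib3 lies farthest from the line, at -2.88 in wt and -0.48 in KO, and Atf3 is the one gene below it.

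The genes around the set were counted from lists that hold none of the 10. The 44 ATF4 targets measured were mainly of amino acid transport and synthesis and of tRNA charging. In KO sham 42 were lower and 0 higher, against 5.67% and 4.58% of all genes (median log2 -0.83, against -0.0083 over all genes). Paraquat lowered 41 and raised 1 in wt, against 14.3% and 14.9% of all genes (median -1.17, against 0.0088). Niban1 (-2.63 in KO sham, -3.54 with paraquat in wt), the mitochondrial enzyme Pck2 (-2.20 and -3.00) and the arginine transporter Slc7a3 (-3.37 in KO sham) were among them, as was the proline synthesis enzyme Aldh18a1 (-2.42 with paraquat in wt). In KO, paraquat lowered 17 and raised 5, against 12.6% and 14.5% of all genes (median -0.24). Sesn2, an mTORC1 inhibitor, rose by 1.25 and the cystine transporter Slc7a11 by 1.05, while Aldh18a1 changed by -0.87. Under paraquat 0 of 44 were called between genotypes, 0 in every alternative fit. With 0.55% of all genes called there, that count says nothing particular of the list. For 37 of 44 the response was called more positive in KO than in wt, against 1.39% of all genes. The list was chosen with results of these arrays known, so its counts are not independent evidence of direction.

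The machinery upstream of ATF4 was called in KO sham at about the share of all genes. Of 19 genes of eIF2, its kinases and phosphatase partners, 2 were higher and 0 lower in KO sham: the RNA-sensing kinase Eif2ak2 (0.67 ± 0.13, adjusted p = 0.00524) and the kinase inhibitor Dnajc3 (0.42 ± 0.09, adjusted p = 0.00881). That is 10.5% of the list, against 10.2% of all genes. With 16 added to each signal 6 of the 19 were called, and from the 6 sham arrays alone 1. Paraquat raised 4 and lowered 3 in each genotype, 36.8% of the list, against 29.2% of all genes in wt and 27.1% in KO. In wt Dnajc3 (-0.70) and the eIF2 subunit Eif2s2 (-0.71) fell and Impact (0.50), a regulator of the amino acid-sensing kinase, rose. In KO Dnajc3 (-0.89), that kinase itself, Eif2ak4 (-0.64), and Eif2s2 (-0.42) fell.

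Other factors of the ATF4 and C/EBP protein class were more often lower than higher in KO sham, and mixed in their paraquat responses. Of 30, 9 were lower and 2 higher in KO sham, 36.7% of the list, against 10.2% of all genes (5.67% lower, 4.58% higher). Among the lower were Atf5, a stress-translated relative of ATF4 (-1.58), Atf6, a sensor of the endoplasmic reticulum (-1.10), and Nfe2l1, a regulator of proteasome genes (-0.78). From the 6 sham arrays alone 7 of 30 were called. Paraquat raised 8 and lowered 13 in wt, 70% of the list, against 29.2% of all genes. It raised 8 and lowered 9 in KO, 56.7% of the list, against 27.1% of all genes. Without KO sham 2, 11 of 30 were called in KO. The AP-1 gene Fosb fell by 2.39 on the log2 scale in wt and by 2.40 in KO. Cebpa, a differentiation factor, rose by 1.35 and 1.42, Nfe2l1 changed by -1.42 in wt, and Junb rose by 1.11 in KO. Maff was the single gene of these lists called between genotypes under paraquat (-0.57 ± 0.11, adjusted p = 0.0331), and it was not called from the 6 paraquat arrays alone.

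Listed genes of the branch of the unfolded protein response that runs through XBP1 and ATF6 were mixed in KO sham. Of 22 genes 3 were higher and 2 lower in KO sham (median 0.12), 22.7% of the list, against 10.2% of all genes. The degradation adaptor Sel1l was at -0.75, the chaperone Hsp90b1 at 0.52 and Creld2 at 0.38. Atf6 itself, counted with the ATF4 and C/EBP protein class, was lower (-1.10). Paraquat lowered 8 and raised 2 in wt, and lowered 10 and raised 2 in KO. That is 45.5% and 54.5% of the list, against 29.2% and 27.1% of all genes. In wt Sel1l (-1.14), the disulfide isomerase Pdia6 (-0.83) and the chaperone Hyou1 (-0.73) fell, and in KO Pdia6 (-0.83), Hsp90b1 (-0.82) and the protease Mbtps1 (-0.85). In KO sham 2 of 22 were called from the 6 sham arrays alone, and 8 with a filter on dim genes.

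Of 13 cell death genes linked to CHOP and ATF4, 5 were lower and 2 higher in KO sham, 53.8% of the list, against 10.2% of all genes. Sqstm1, an autophagy receptor also transcribed under stress (-1.17), and the BH3-only gene Bbc3 (-0.60) were lower and Txnip, a thioredoxin-binding protein (0.70), was higher. Paraquat raised 2 and lowered 3 of the 13 in wt, and raised 4 and lowered 2 in KO. That is 38.5% and 46.2% of the list, against 29.2% and 27.1% of all genes. The death receptor Tnfrsf10b (0.70 in wt, 0.75 in KO) and the survival gene Bcl2l1 (0.77 and 0.75) rose. Car6 in wt (-2.68) and Casp12 in KO (-0.42) were among those that fell. Of 23 regulators of mTORC1, 3 were higher and 2 lower in KO sham, 21.7% of the list, against 10.2% of all genes. Tsc2 was at -0.43, Tbc1d7 at -0.55 and Depdc5 at 0.45, and 1 of 23 was called from the 6 sham arrays alone. Paraquat raised 5 and lowered 4 in wt, and raised 9 and lowered 5 in KO, 39.1% and 60.9% of the list. Ddit4l, the paralogue of Ddit4, rose by 1.46 and 1.41 while Ddit4 itself fell in wt. The kinase subunit Prkaa2 rose by 1.51 and 1.68, Castor2, which encodes an inhibitor of the mTORC1 activator GATOR2, by 1.05 in wt, and Depdc5 changed by -0.68 in KO.

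**Figure D4:**
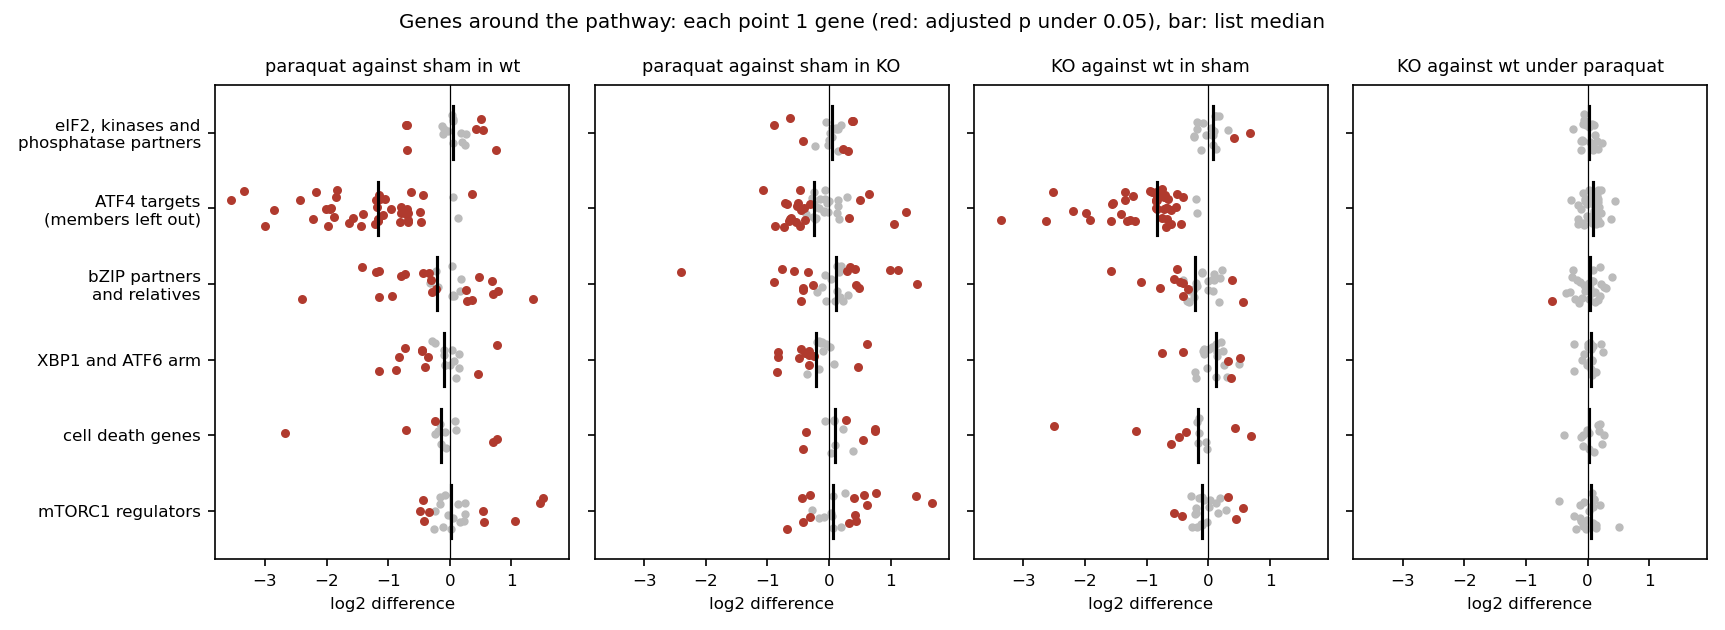
Log2 difference of each gene (points; vertical scatter only separates them) of 6 lists around the pathway in the 4 pairwise comparisons, with red for an adjusted p under 0.05 and a black bar at the list median. The ATF4 targets lie left of 0 in wt under paraquat (median -1.17) and in KO sham (median -0.83), and near 0 between genotypes under paraquat.

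The genes with a pattern most like 4 of the members were found by Pearson correlation of log2 signal over the 12 arrays, among 10521 brighter named genes. All points share the 4 group means, so the coefficients are descriptions. For Ddit4 they were Arnt (0.98), Pacs2 (0.98) and Atf6 (0.97). For Ddit3 they were Leprotl1 (0.96), Shroom2 (0.96) and Sqstm1 (0.96). Cebpb was followed most closely by Ttc9 (0.99), Socs5 (0.98) and Plk3 (0.98), and Atf4 by Sphk2, Coro7 and Ubqln1 (each 0.94).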

How the data were processed

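Total RNA of 12 cultures was measured on Affymetrix arrays, 1 array each. Per the submitters' processing notes, the authors made an intensity per probe set with RMA in Affymetrix Expression Console 1.3.1.187. The deposited intensities were whole numbers from 3 to 17695, read from the values as rounded linear signals, and their log2 was taken here. Neither filters nor a genome build is stated there. Precision is limited by having 3 arrays a group.

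Of 41345 probe sets 23521 carried 1 gene symbol, 1814 several and 16010 none, and 23328 matched the GRCm38.p6 gene table. The brightest probe set stood for each gene (22180 genes, no filter). limma 3.58.1 (R 4.3.3) fitted 1 mean per group without a block, with 2-sided moderated tests, p-values adjusted by Benjamini-Hochberg over all genes, a threshold of 0.05, and the fit was checked on simulated arrays. No depth exists for arrays. Of 228 list entries 212 were measured.

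The members, lists and tests were chosen with earlier results of these data known. Named were all members, up to 3 called genes per pathway list in order of p in the pairwise comparisons, and the 3 genes most correlated with Atf4, Ddit3, Cebpb and Ddit4. Alternatives were other scalings, filters, probe set rules, variance models and sets of arrays. Promoter sequence is from RefSeq.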

Additional observations from a re-analysis of the deposited data

Results flagged for a closer look

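For 4 of the 10 genes the paraquat response differed between genotypes in limma's test of the difference itself (KO response minus wt response, 3 arrays per group). The values were log2 2.40 for Trib3, 1.35 for Chac1, 0.70 for Cebpg and 0.63 for Ddit4. Over all genes 2.29% passed this test, 1.39% with a positive difference. The Trib3, Chac1 and Cebpg calls were kept in every fit that left out 1 array, with Cebpg's adjusted p between 0.0116 and 0.0419, and the Ddit4 call was lost in 8 of the 12. Groups of 3 arrays were too small for a test of single outlying arrays.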

How the results depend on the processing

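Under every alternative run, including each fit without 1 array, 9 members were called in sham and 0 between genotypes under paraquat, and 8 in the wt response except without wt sham 2 and KO paraquat 3 together (7, with 7 in the KO response and 4 in the difference). In the KO response 4 to 6 were called without 1 array, and in the difference of responses 3 to 7. The number with wt sham above all other arrays was 6 to 7, and called genes of the pathway lists numbered 229 to 249. Of the members' values under alternatives 14 changed sign, none of them called: Atf4 in wt (0.0037 after a second quantile normalization, -0.061 to 0.0155 without 1 array), Cebpg in KO (-0.013 after centring, -0.047 to 0.11) and between paraquat groups (-0.039 to 0.12), Atf3 in sham (-0.12 to 0.031), Ppp1r15a in wt (-0.26 to 0.081) and Chac1 under paraquat (-0.083 to 0.0064). Without wt sham 2 and KO paraquat 3 together Atf4 and Ppp1r15a in wt stood at 0.0155 and 0.081, and Chac1 between paraquat groups at 0.0064. Counts over all genes depended on the setting: 2273 in sham (976 from the 6 sham arrays, 2851 with the filter), 122 between paraquat groups (3 and 253 likewise) and 508 in the difference of responses (250 without wt paraquat 1, 926 with the filter). The cause was not tested. Same-numbered arrays correlated at -0.072 to 0.09 in their deviations from the group means, and differently numbered ones at -0.126 to 0.145. No strong pairing by number was visible, but 3 arrays a group cannot tell whether the numbers pair the samples. With the replicate number as a block 9 members were called in sham, 8 and 5 in the wt and KO responses, 0 under paraquat and 4 in the difference, with no member's call changed, and 439 genes in all in the difference. Every array correlated best with its own number in the KO response, but not in the other comparisons. Between paraquat groups wt paraquat 1 was the exception, at 0.0108 with KO paraquat 2 against 0.0069 with KO paraquat 1.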
